A study of Mus musculus with 10 samples.

Results

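Protein components of the mitochondrial ribosome were followed in the embryonic dorsal telencephalon of mice with floxed copies of Rnu11, the gene of the U11 small nuclear RNA. The genes were chosen by symbol, as Dap3 and every symbol made of Mrps or Mrpl, a number and at most 1 further letter, leaving out 4 pseudogenes. This gave 77 genes of the 38803 symbols in each expression list, 30 named for the small subunit (Dap3 and 29 Mrps genes) and 47 named for the large subunit (Mrpl genes). Total RNA was sequenced at embryonic day 12 in 10 libraries of mixed C57/Bl6 and 129 SvJ background. The 5 mutant libraries carried Rnu11 Flx/Flx::Emx1-Cre+/- and the 5 control libraries Rnu11 WT/Flx::Emx1-cre+/-. Emx1-Cre, a recombinase driven in progenitors of the dorsal telencephalon, was thus present in both groups, and the controls too carried 1 floxed copy of Rnu11, so no library had both copies of Rnu11 unfloxed. Vessels, blood, microglia and meninges of the dissected tissue do not descend from Emx1-expressing progenitors, and their RNA is part of each library. The question of the comparison is which transcripts of the mitochondrial ribosome change when both copies of Rnu11, and not 1, can be deleted in the cortical primordium.

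Mitochondrial ribosomes translate the few messages encoded by mitochondrial DNA, which specify core subunits of the respiratory chain and of ATP synthase. Their rRNAs (mt-Rnr1 in the small subunit, mt-Rnr2 in the large) come from the mitochondrial genome, whereas every protein of the ribosome is encoded in the nucleus, made in the cytosol and imported. Compared with their bacterial relatives they are rich in protein, and many of these proteins have no bacterial counterpart. U11 belongs to the minor spliceosome, in which it recognises the start of minor introns, a rare intron class. Which of the 77 genes hold such an intron was not analysed here.

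Many of these genes start close to a gene that runs in the opposite direction. By GENCODE M21 (GRCm38), 33 of the 77 genes (42.9%) had a protein-coding gene on the opposite strand whose start lay within 1000 bases of their own, against 1851 of 11041 tested protein-coding genes (16.8%). In 1 case both genes of such a pair belong to the mitochondrial ribosome, Mrps11 and Mrpl46. Promoter windows of 300 bases, from 250 bases before to 50 bases after the start, were found in RefSeq (GRCm38.p6) for 67 of the 77 genes, 26 of the small and 41 of the large subunit. Dap3, Mrpl13, Mrpl15, Mrpl19, Mrpl38, Mrpl4, Mrpl54, Mrps28, Mrps34 and Mrps35 had no entry. The windows of 4 genes are shown 5′ to 3′ on the strand of the gene. Mrps11 (chr7:78782881-78783180, plus strand) and Mrpl46 (chr7:78783040-78783339, minus strand) are shown because their starts lie 42 bases apart in RefSeq and their windows share 141 bases. Mrps33 (chr6:39810887-39811186, minus strand) is shown because it had the smallest p of the members other than Dap3. Mrps18b (chr17:35916391-35916690, minus strand) is shown as a window with more than 1 kind of motif. Capitals mark matches on either strand to the cores of NRF1 (GCGCATGC), of the ETS family to which GABP belongs (CCGGAAG) and of YY1 (GATGGCG), factors known to act on nuclear genes of mitochondria.
Mrps11: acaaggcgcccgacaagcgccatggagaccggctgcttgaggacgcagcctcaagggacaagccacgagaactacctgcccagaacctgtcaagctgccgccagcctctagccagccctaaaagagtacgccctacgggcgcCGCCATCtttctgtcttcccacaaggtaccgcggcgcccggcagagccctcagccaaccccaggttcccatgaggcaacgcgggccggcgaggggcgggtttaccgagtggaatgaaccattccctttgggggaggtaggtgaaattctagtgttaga
Mrpl46: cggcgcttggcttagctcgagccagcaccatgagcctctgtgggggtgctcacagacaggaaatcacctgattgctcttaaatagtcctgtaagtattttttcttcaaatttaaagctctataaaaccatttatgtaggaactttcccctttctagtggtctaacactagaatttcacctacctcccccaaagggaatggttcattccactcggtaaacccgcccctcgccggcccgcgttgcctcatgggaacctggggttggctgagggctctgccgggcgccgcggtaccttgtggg
Mrps33: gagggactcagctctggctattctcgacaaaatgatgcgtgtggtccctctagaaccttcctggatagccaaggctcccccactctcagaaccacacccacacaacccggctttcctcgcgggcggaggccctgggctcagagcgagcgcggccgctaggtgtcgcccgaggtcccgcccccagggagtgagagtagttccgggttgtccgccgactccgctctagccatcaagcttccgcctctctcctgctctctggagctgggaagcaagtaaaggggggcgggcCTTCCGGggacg
Mrps18b: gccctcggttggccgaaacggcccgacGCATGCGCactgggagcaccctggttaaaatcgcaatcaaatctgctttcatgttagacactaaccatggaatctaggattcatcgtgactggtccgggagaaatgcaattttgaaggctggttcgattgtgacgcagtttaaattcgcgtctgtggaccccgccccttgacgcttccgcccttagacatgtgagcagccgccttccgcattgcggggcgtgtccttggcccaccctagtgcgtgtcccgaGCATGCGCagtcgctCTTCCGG
In the Mrps11 window the capitals mark a reverse-strand YY1 core 108 bases before the start, and in the Mrps33 window a reverse-strand ETS core 38 bases after it. The Mrps18b window holds a pair of NRF1 cores and 1 ETS core, all on the reverse strand, and the Mrpl46 window holds none of the 3 cores.

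Over the 67 windows, the ETS core stood in 24 (35.8%), against 20.9% of 8701 windows of tested protein-coding genes and 9.93% of all 27025 windows. The NRF1 core stood in 8 (11.9%), against 6.46% of the windows of tested protein-coding genes and 3.05% of all windows. The YY1 core also stood in 8 (11.9%), against 7.96% and 4.04%. These shares are descriptions of letters in a window, and no binding was measured. Member genes with an ETS core had a median log2 difference between mutants and controls of 0.06, against 0.07 for those without. The medians were 0.09 with and 0.06 without the NRF1 core, and 0.09 with and 0.07 without the YY1 core.

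Expression values were the deposited FPKM (fragments per kilobase of transcript, scaled to the size of the library), which correct for transcript length and can be compared between genes. All 77 genes were expressed in all 10 libraries at 1 FPKM or more, and the lowest single value was 4.13 FPKM for Mrpl1. Each library's depth is not stated. It was estimated roughly from the FPKM steps of long single-transcript genes at 9660000 fragments in control 4 to 20700000 in mutant 5 and control 2. Whether the libraries stem from separate embryos is not stated, and the p-values measure the spread between libraries, which may be technical. Rnu11 itself averaged 892.3 ± 458 FPKM in mutants and 2283 ± 353 FPKM in controls (SD, n = 5 each), or 39.1% of control (two-sided exact permutation, p = 0.00794; limma, adjusted p = 0.118). Both genotypes were split between a pair of library sets, told apart by the level of the U12 RNA gene Rnu12. Mutant 4, mutant 5 and control 5 had 486.9 to 688.3 FPKM of Rnu12 (the second set), and the other 7 libraries 5.911 to 33.81 FPKM (the first set). This division comes from the data and not from the labels, and the second set holds a single control. Rnu11 measured 712, 473 and 511 FPKM in mutants 1 to 3 and 1344 and 1421 FPKM in mutants 4 and 5, against 2386, 2031, 2817, 1913 and 2266 FPKM in controls 1 to 5. Every mutant lay below every control, and mutants 4 and 5 were nearer to the controls. The mutant mean was 24.7% of the control mean within the first set and 61.0% in the second.

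Markers of the dorsal telencephalon, the labelled tissue, were present: all 8 (among them Emx1, Pax6 and Tbr1) were at 5 FPKM or more in every library and summed to 176 to 206 FPKM in mutants and 141 to 218 FPKM in controls. Summed ventral telencephalon markers lay at 8.97 to 23.1 FPKM in mutants and 6.32 to 53.5 FPKM in controls, and 4 of these 6 (Gsx2, Dlx2, Nkx2-1 and Lhx6) were under the filter. Endothelial markers summed to 25.9 to 43.3 FPKM in mutants and 21.4 to 35.3 FPKM in controls, meningeal and mesenchymal markers to 71.8 to 174 FPKM in mutants and 58.3 to 142 FPKM in controls, and erythroid markers to 3530 to 7900 FPKM in mutants and 3080 to 7460 FPKM in controls. Markers of microglia and macrophages summed to 18.2 to 53.6 FPKM in mutants and 10.3 to 26.0 FPKM in controls. These ranges overlap across the library sets but not within them, with 34.6 to 53.6 FPKM in mutants and 14.0 to 26.0 FPKM in controls of the first set, and 18.2 to 19.7 FPKM in mutants 4 and 5 beside 10.3 FPKM in control 5 of the second. All 5 of them had a log2 difference above the median of all genes, and their median difference was 0.58. By limma, 0 of these 5 passed adjustment, and 3 (Fcer1g, Aif1 and C1qa) were higher at an unadjusted p under 0.05, against 7.69% of all genes. Of the 8 dorsal telencephalon markers, 2 (Eomes and Pax6) were also higher at that threshold and 0 passed adjustment. The dorsal median difference was 0.25, against 0.11 over all genes. The ventral, endothelial, erythroid and meningeal lists had 0 at that threshold. No marker of any of the 6 lists was listed at 0 in all libraries. The part of these cells in the values of the ribosome genes was not tested.

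Dap3 was the member that fell in the mutants. Its product, mS29, is a GTP-binding protein in the head of the small subunit that has no bacterial counterpart, and it was first described in human cells as a mediator of cell death. Dap3 measured 35.5, 35.5, 32.1, 34.9 and 29.0 FPKM in mutants 1 to 5, against 67.3, 57.4, 54.0, 62.7 and 52.4 FPKM in controls 1 to 5. Every mutant lay below every control, and the gap between the groups was wider than the range within either group. The means were 33.4 ± 2.84 FPKM in mutants and 58.8 ± 6.20 FPKM in controls (SD, n = 5 each), so that mutants held 56.8% of the control level. On the log2(FPKM + 1) scale the difference was -0.80 (SE 0.10, 95% interval -1.02 to -0.57) and passed the threshold over all 13522 genes tested (limma, adjusted p = 0.0152). The exact two-sided permutation test on its FPKM gave p = 0.00794, the smallest of 252 allocations. In bulk tissue, fewer cells of a type and less RNA per cell cannot be told apart.

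The call of Dap3 held within the first library set, where the log2 difference was -0.79 (limma, adjusted p = 0.0176), and in the second set mutants with 34.9 and 29.0 FPKM stood against a control with 52.4 FPKM. It was lost when mutant 2 (limma, adjusted p = 0.0828), mutant 3 (0.0677), control 1 (0.056) or control 2 (0.0509) was left out, and with no filter on low values (0.0528), while the difference stayed between -0.75 and -0.83 in the 10 fits that left out 1 library. Dap3 (ENSMUSG00000068921.14) lies at chr3:88920803-88951181 of GRCm38 on the minus strand, with 6483 exonic bases. Exons of Ash1l, a histone methyltransferase gene, overlap it on the opposite strand, and the annotated starts are 559 bases apart. Ash1l measured 9.77, 7.50, 8.15, 6.16 and 6.14 FPKM in mutants and 6.01, 6.69, 5.50, 7.48 and 7.44 FPKM in controls. The ranges of Ash1l overlapped. Its means were 7.54 ± 1.52 FPKM in mutants and 6.62 ± 0.873 FPKM in controls (SD, n = 5 each), a log2 difference of 0.15 (limma, adjusted p = 0.76; exact two-sided permutation test, p = 0.238). The sources used here do not say whether fragments were assigned by strand, so fragments of this overlap cannot be placed with certainty.

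**Figure D1:**
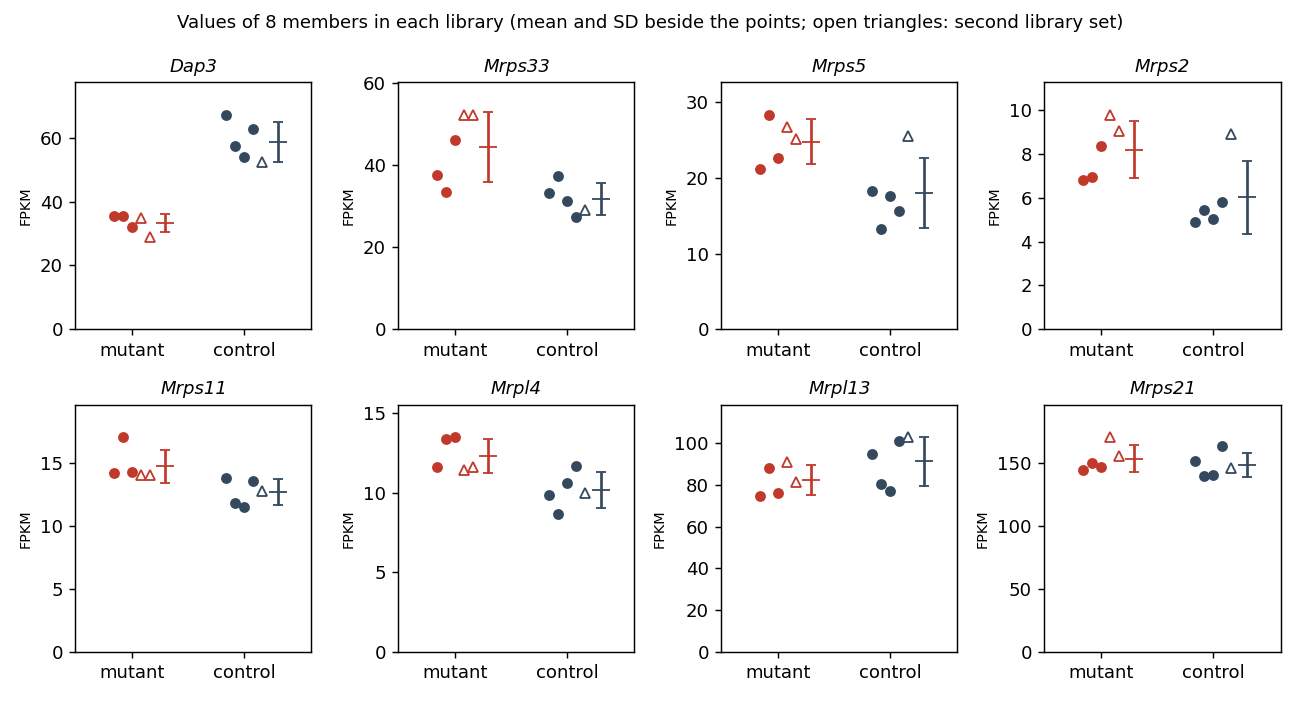
FPKM of 8 mitochondrial ribosome genes in each library (vertical axis from 0, mutants left, controls right), with the mean and SD of the 5 libraries beside the points and open triangles for the 3 libraries of the second set. The 5 mutants of Dap3 sit between 29.0 and 35.5 FPKM, all below the 5 controls at 52.4 to 67.3 FPKM, whereas the groups of Mrps21 and Mrpl13 overlap.

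Relative to its fellow components Dap3 was also lower. Its log2 level minus the median log2 level of the other 76 members was 0.72, 0.53, 0.60, 0.66 and 0.44 in mutants 1 to 5, against 1.52, 1.5, 1.44, 1.47 and 1.19 in controls 1 to 5. The groups did not overlap on this scale either, which is unaffected by a factor common to all genes of a library except through the added 1 FPKM. Of the summed FPKM of all 77 genes, Dap3 held 1.40 to 1.85% in mutants and 2.40 to 3.30% in controls. By level Dap3 ranked 20 of the 77 in mutants and 6 in controls.

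Of the 77 genes, 1 was called lower in mutants (Dap3) and 0 higher at an adjusted p under 0.05 (limma). Of all 13522 tested genes, 9 (0.0666%) were called lower and 12 (0.0887%) higher. At an unadjusted p under 0.05, 1 member was lower, again Dap3, and 5 were higher, against 1.07% of all genes lower and 7.69% higher. The 5 members make up a share of the 77 close to that of all genes. Without overlap between the groups, 1 member (Dap3) was lower in every mutant than in any control, against 0.377% of all genes, and 1 (Mrps11) was higher, against 1.52% of all genes.

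The other 76 members lay close to the shift that all genes showed. Over all tested genes the median log2 difference was 0.11 (quartiles 0.003 and 0.21), and 75.7% of them had a positive difference. The 76 members had a median of 0.06 (quartiles -0.02 and 0.17), with 51 above 0 and 25 below. With libraries scaled by median ratios, which put the median of all genes at 0.002, only 26 of the 77 were above 0 and 51 below. With quantile normalization 29 were above 0 and 48 below, so the majority direction of the members depends on the scaling. Relative to the median of all genes, 28 of the 76 were above and 48 below. The median of all 77 relative to all genes was -0.05. It was -0.11 in the first library set alone and 0.01 when no filter on low values was used. Differences of the 76 ran from -0.27 (Mrps36) to 0.46 (Mrps5).

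The precision for single members was moderate. For the 76 members other than Dap3 the 95% interval of the log2 difference had a median width of 0.52, and the widest, 1.2, belonged to Mrps15, with an upper bound of 1.02. In 71 of the 76 the interval held 0. In 70 of the 76 it lay wholly inside the bounds that a 1.5-fold difference in either direction sets on this scale. None of the 76 intervals reached the estimate of Dap3, and the lowest bound among them was -0.77 for Mrps36. The interval of Dap3 itself, -1.02 to -0.57, overlapped that of Mrps36. A member whose interval holds 0 is not thereby shown to be equal in both groups.

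**Figure D2:**
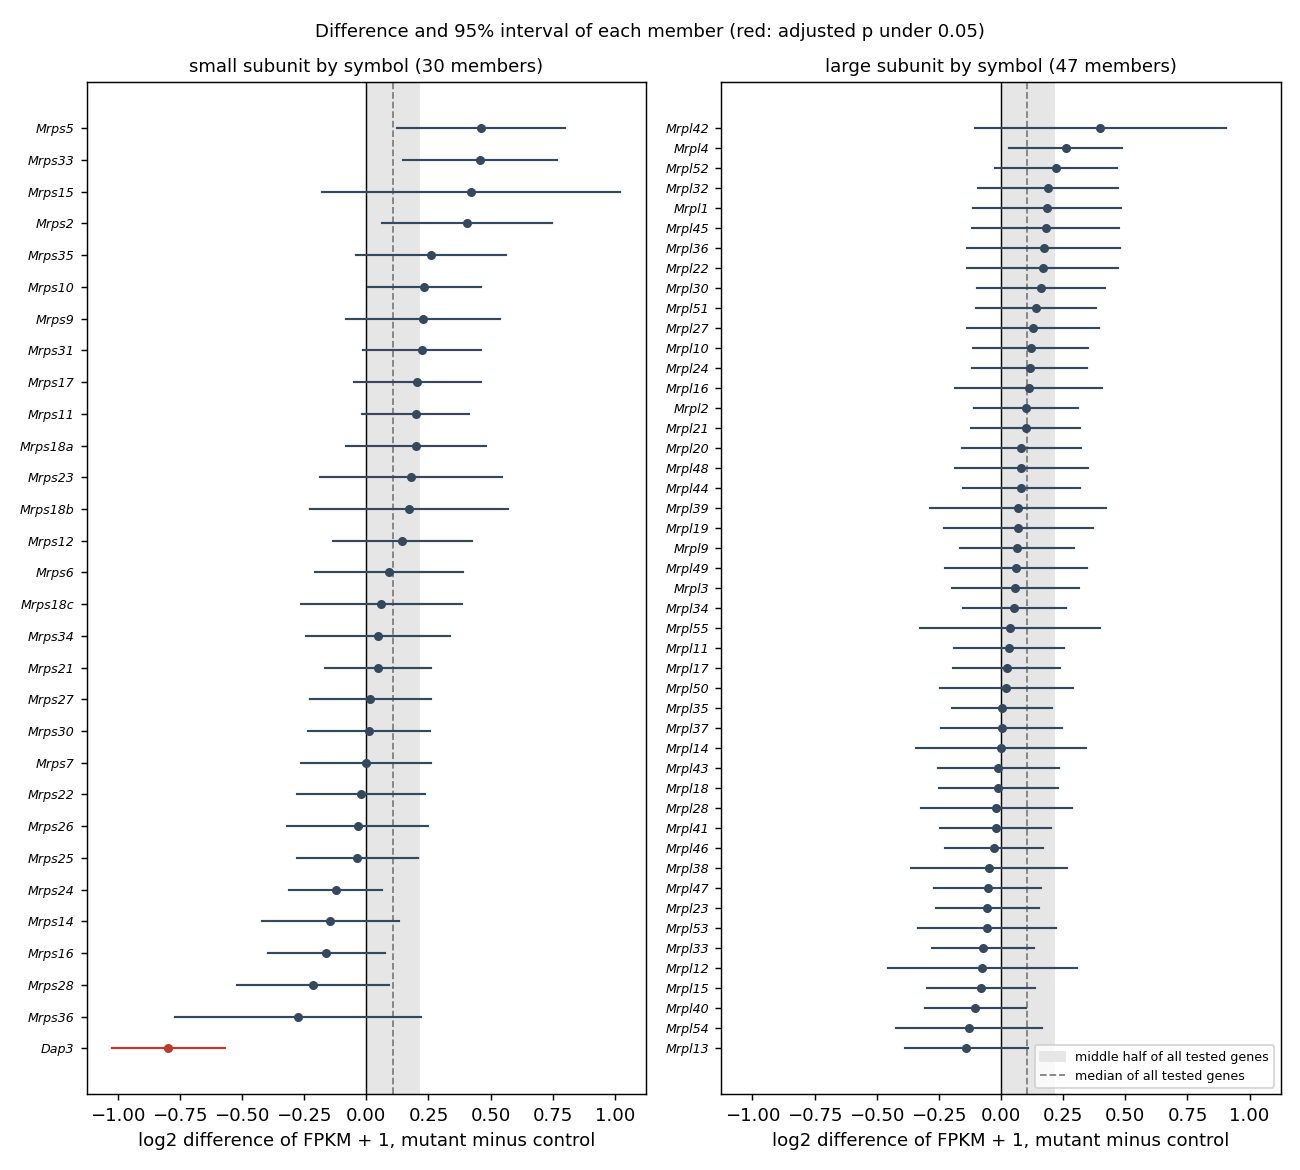
Log2 difference of FPKM + 1, mutant minus control, with its 95% interval (limma) for the 30 members named for the small subunit (left) and the 47 named for the large subunit (right). The dashed line is the median of all tested genes at 0.11 and the grey band their middle quartiles. Dap3 at -0.80 stands apart to the left, and the other 76 lie between -0.27 and 0.46.

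Among the components of the small subunit with a bacterial homologue, those with the smallest p were higher in mutants without passing adjustment. Mrps5 (uS5m, a protein beside the channel through which the message enters) measured 21.2, 28.4, 22.6, 26.7 and 25.2 FPKM in mutants and 18.3, 13.2, 17.6, 15.7 and 25.5 FPKM in controls. All mutants lay above 4 of the 5 controls, and control 5 lay among the mutants. The log2 difference was 0.46 (SE 0.16, limma, adjusted p = 0.431), with 0.54 within the first library set and 0.02 in the second. Mrps2 (uS2m, between the head and the body of the subunit) showed the same arrangement, with 6.81, 6.95, 8.38, 9.81 and 9.07 FPKM in mutants and 4.91, 5.43, 5.04, 5.81 and 8.91 FPKM in controls. Control 5 stood above the other 4 controls by more than their whole range. The log2 difference of Mrps2 was 0.41 (SE 0.16, limma, adjusted p = 0.501), with 0.41 within the first set and 0.07 in the second.

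Mrps10 (uS10m, in the head) lay at 7.49 to 9.05 FPKM in mutants, with a median of 8.30, and at 5.90 to 7.72 FPKM in controls, with a median of 6.94. Its lowest mutant and highest controls overlapped, and its log2 difference was 0.23 (limma, adjusted p = 0.565). Mrps11 (uS11m, of the platform near the exit of the message) measured 14.2, 17.1, 14.3, 14.1 and 14.1 FPKM in mutants and 13.8, 11.8, 11.5, 13.6 and 12.8 FPKM in controls. Every mutant lay above every control, by a small margin. Its log2 difference of 0.20 (SE 0.10) did not pass (limma, adjusted p = 0.592), and with median-ratio scaling the groups overlapped. Mrpl46, which starts beside Mrps11 on the other strand and encodes a large-subunit protein without a bacterial counterpart, measured 22.4, 26.1, 25.7, 26.7 and 24.1 FPKM in mutants and 27.5, 25.1, 24.1, 25.8 and 25 FPKM in controls. The ranges of Mrpl46 overlapped throughout, and its log2 difference was -0.03 (limma, adjusted p = 0.945). Exons of this pair overlap on opposite strands, so the values of both are less certain.

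Other homologues of bacterial small-subunit proteins lay slightly lower in mutants, again without passing. Mrps16 (bS16m) lay at 39.0 to 50.8 FPKM in mutants and 44.5 to 55.5 FPKM in controls, a log2 difference of -0.16 (limma, adjusted p = 0.682). Mrps14 (uS14m, in the head) lay at 18.1 to 25 FPKM in mutants and 18.8 to 27.9 FPKM in controls, a difference of -0.14 (adjusted p = 0.753). The mutant and control ranges of both genes overlapped widely. Mrps24 (uS3m, at the entry of the message channel) lay at 41.1 to 46.2 FPKM in mutants and 45.5 to 51.3 FPKM in controls, a difference of -0.12 (adjusted p = 0.693), and of the controls only control 3 lay within the mutant range. Exons of Urgcp overlap those of Mrps24 on the same strand. Mrps28 (bS1m) lay at 18.9 to 27.8 FPKM in mutants and 21.5 to 30.2 FPKM in controls, a difference of -0.21 (adjusted p = 0.678). Its low values were those of the second set, 18.9 and 19.6 FPKM in mutant 4 and mutant 5 and 21.5 FPKM in control 5, and the difference was -0.11 within the first set and -0.15 within the second.

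Of the small-subunit proteins without a bacterial counterpart, Mrps33 (mS33) had the largest values in mutants 4 and 5. It measured 37.5, 33.5, 46.0, 52.2 and 52.3 FPKM in mutants and 33.3, 37.3, 31.2, 27.3 and 29.1 FPKM in controls. The groups overlapped through mutant 2 and control 2. Its log2 difference of 0.46 (SE 0.14) had the smallest p of the 76 (limma, unadjusted p = 0.00716) and did not pass adjustment (adjusted p = 0.357). The difference was 0.26 within the first library set and 0.82 in the second. Mrps34 (mS34, needed for a stable small subunit in mice, with exons overlapped by Mapk8ip3 and Nme3) lay at 6.28 to 8.42 FPKM in mutants and 6.21 to 9.54 FPKM in controls, and its 4 controls of the first set lay within 6.21 to 6.33 FPKM. Its difference was 0.05 (limma, adjusted p = 0.936).

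Mrps36 had the lowest difference of the 76, with a wide interval. Despite its symbol, its product is known as a component of 2-oxoglutarate dehydrogenase and not of the ribosome. It lay at 6.24 to 14.9 FPKM in mutants, with a median of 9.99, and at 7.55 to 17.2 FPKM in controls, with a median of 12.6. The groups overlapped over most of their range. The log2 difference was -0.27 (SE 0.23, 95% interval -0.77 to 0.22, limma, adjusted p = 0.739). It has 3 annotated pseudogenes named after it that could share its reads, as Mrpl23 and Mrpl48 each have 1. Pseudogenes of the members under other symbols were not searched for.

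The Mrps18 genes are paralogs whose products take different places. Mrps18c encodes bS18m, Mrps18b encodes mS40 of the small subunit, and the product of Mrps18a, mL66, sits in the large subunit. Mrps18c lay at 9.44 to 14.4 FPKM in mutants and 8.79 to 14.4 FPKM in controls, a log2 difference of 0.06 (limma, adjusted p = 0.92). Mrps18b lay at 15.5 to 23.4 FPKM in mutants and 12.9 to 24.5 FPKM in controls, a difference of 0.17 (adjusted p = 0.8). Mrps18a measured 17.6, 18.8, 19.2, 12.5 and 13.4 FPKM in mutants and 12.9, 13.4, 13.9, 14.3 and 14.7 FPKM in controls. Mutants 1 to 3 of Mrps18a lay above every control, and mutants 4 and 5, of the second set, lay below control 5. Its difference was 0.20 (adjusted p = 0.671), made of 0.41 within the first library set and -0.17 in the second. None of the 3 paralogs passed the test.

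In the large subunit the differences spanned a narrower range, -0.14 (Mrpl13) to 0.40 (Mrpl42), and 0 of 47 were called in either direction (limma), with 1 higher and 0 lower at an unadjusted p under 0.05. This was Mrpl4 (uL4m, which lines the exit tunnel of the nascent chain in bacteria), with 11.6, 13.4, 13.5, 11.4 and 11.6 FPKM in mutants and 9.83, 8.64, 10.6, 11.7 and 9.99 FPKM in controls. Only control 4 reached the mutant range. Its log2 difference was 0.26 (SE 0.10, limma, unadjusted p = 0.0288, adjusted p = 0.517), with 0.32 within the first library set and 0.18 in the second. Mrpl13 (uL13m) measured 74.7, 88.3, 76.1, 91.2 and 81.3 FPKM in mutants and 94.6, 80.5, 77, 101 and 103 FPKM in controls. The groups overlapped. Its difference was -0.14 (SE 0.11, limma, adjusted p = 0.735), and with median-ratio scaling every mutant lay below every control. The share of all genes without overlap under that scaling is not given here. Exons of Mtbp overlap those of Mrpl13 on the opposite strand.

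Mrpl42 (mL42, without a bacterial counterpart) measured 50.3, 55.4, 65.1, 89.4 and 97.0 FPKM in mutants and 47.2, 47.6, 40.5, 47.9 and 88.1 FPKM in controls. The 3 libraries of the second set were the 3 highest of the 10, and within the first set the mutants lay above the controls. Its log2 difference was 0.40 (SE 0.23, limma, adjusted p = 0.634), with 0.30 within the first set and 0.08 in the second. Mrpl52 (mL52) lay at 42.4 to 50.1 FPKM in mutants and 33.9 to 49.1 FPKM in controls, a difference of 0.22 (adjusted p = 0.594). Mrpl32 (bL32m, which is trimmed by the m-AAA protease before assembly) lay at 38.4 to 49.6 FPKM in mutants and 30.2 to 48.1 FPKM in controls, a difference of 0.19 (adjusted p = 0.686). Mrpl1 (uL1m, of the stalk beside the exit site for tRNA in bacteria) lay at 5.41 to 6.55 FPKM in mutants and 4.13 to 7.33 FPKM in controls, a difference of 0.18 (adjusted p = 0.708). For Mrpl1 the highest value was that of control 5, and the difference was 0.30 within the first set and -0.27 in the second.

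Several large-subunit components were slightly lower in mutants, slightly higher or about equal. Mrpl40 (mL40) averaged 36.2 ± 2.83 FPKM in mutants and 39.0 ± 2.56 FPKM in controls, Mrpl54 (mL54) 55.6 ± 7.75 FPKM in mutants and 60.9 ± 8.87 FPKM in controls, and Mrpl15 (uL15m) 61.3 ± 4.97 FPKM in mutants and 64.9 ± 5.95 FPKM in controls (SD, n = 5 each). Their differences of -0.10, -0.13 and -0.08 were all within the spread between libraries (limma, adjusted p from 0.764 to 0.831). Mrpl2 (uL2m, near the catalytic centre) averaged 16.1 ± 1.42 FPKM in mutants and 15 ± 0.906 FPKM in controls, a log2 difference of 0.10, and Mrpl21 (bL21m) 22.8 ± 1.7 FPKM in mutants and 21.3 ± 2.18 FPKM in controls, also 0.10 (adjusted p = 0.778 and 0.79). Mrpl11 (uL11m, of the stalk base where translation factors bind) averaged 8.11 ± 0.850 FPKM in mutants and 7.87 ± 0.461 FPKM in controls. Mrpl14 (uL14m), the partner of the assembly factor Malsu1, averaged 7.48 ± 1.5 FPKM in mutants and 7.48 ± 1.58 FPKM in controls.

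The 48 members outside the rule for named genes, 14 of the small and 34 of the large subunit, had mean levels between 8.10 FPKM (Mrps31) and 62.8 FPKM (Mrpl18). Their log2 differences ran from -0.07 (Mrpl12) to 0.42 (Mrps15), with 10 of the 14 and 23 of the 34 above 0 without rescaling of the libraries. By limma their adjusted p lay between 0.587 (Mrps31) and 0.999 (Mrps7), and 0 of the 48 had an unadjusted p under 0.05. Mrps15 (uS15m) measured 11, 10, 11.7, 20.7 and 17.6 FPKM in mutants and 6.94, 9.87, 8.24, 8.30 and 20.4 FPKM in controls. The 3 libraries of the second set were again the highest, and the difference of Mrps15 was 0.36 in the first set alone and -0.08 in the second.

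The subunits overlapped in their differences. The median log2 difference was 0.08 over the 30 genes named for the small subunit (0.09 over the 29 without Dap3) and 0.06 over the 47 named for the large, 0.02 apart. By place in the mammalian structure, with Mrps18a and Mrps30 counted in the large subunit and Mrps36 in neither, the medians were 0.09 over 27 genes and 0.06 over 49. With 1 library left out, the small-minus-large difference ran from -0.008 (without mutant 1) to 0.097 (without control 5). Small-subunit genes made up 35.6 to 37.1% of the summed member FPKM in mutants and 36.0 to 37.8% in controls, ranges that overlapped. Members were also split by the systematic names of their products, such as uS5m or mS33. The 46 named after a bacterial protein had a median difference of 0.07 and the 30 not so named had 0.03 (0.05 over the 29 other than Dap3). These 30 include Mrps18a and Mrps18b, although both are paralogs of Mrps18c, which is among the 46.

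The levels of the members kept their order of magnitude between the groups while differing widely among themselves. Mrps21 (bS21m) was the highest, with 145, 150, 147, 171 and 156 FPKM in mutants and 152, 140, 141, 164 and 146 FPKM in controls, ranges that overlapped. Its log2 difference was 0.05 (limma, adjusted p = 0.908). Mrpl13 followed with a mean of 86.7 FPKM over all libraries, and Mrpl1 was the lowest with 5.55 FPKM, so that the highest member stood 27.2 times above the lowest. The median level was 15.4 FPKM over the small-subunit genes and 24.5 FPKM over the large-subunit genes. Summed over all 77 genes, the level was 1917 to 2183 FPKM in mutants and 1876 to 2183 FPKM in controls. Spread between libraries was similar in both groups, with a median coefficient of variation of 11.5% in mutants (2.47% for Mrpl41 to 33.1% for Mrps15) and 13.1% in controls (4.36% for Mrpl9 to 51.0% for Mrps15).

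**Figure D3:**
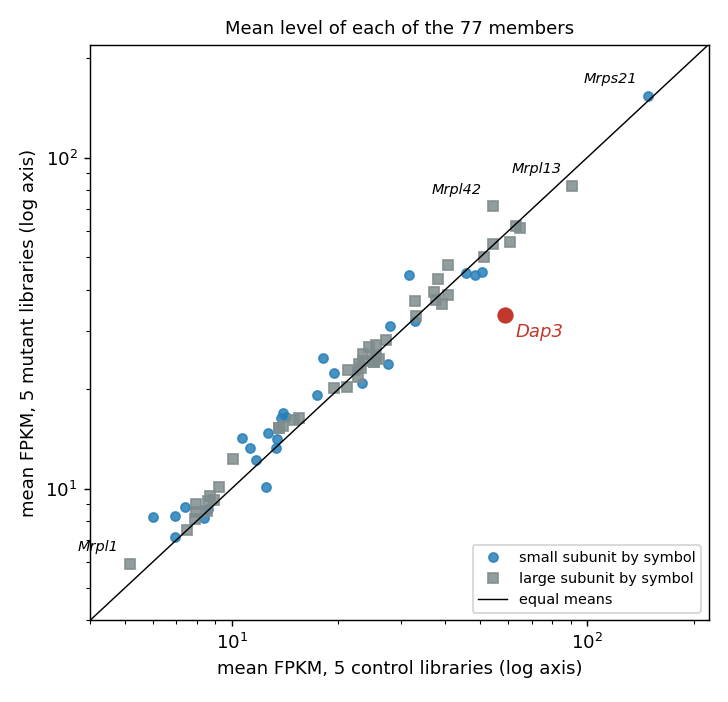
Mean FPKM of each of the 77 members in the 5 mutants (vertical, log axis) and the 5 controls (horizontal, log axis), with circles for the small subunit, squares for the large and the line of equal means. The points follow the line from Mrpl1 to Mrps21, and Dap3, at 33.4 FPKM in mutants and 58.8 FPKM in controls, lies below it.

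Part of the variation of the members followed single libraries. Control 5 was the highest library for 18 of the 77 genes and mutant 2 for another 18, while control 2 was the lowest for 22 and control 3 for 17. The median deviation of the members from their mean over 10 libraries ran from -0.08 to 0.08 on the log2 scale in mutants and from -0.14 to 0.11 in controls, and that of all tested genes from 0.02 to 0.08 in mutants and from -0.19 to 0.11 in controls. Of the libraries just named, control 5 was at 0.11 for all tested genes, mutant 2 at 0.07, control 2 at -0.13 and control 3 at -0.19. In the first library set alone, 3 mutants against 4 controls, 12 of the 77 members were higher in every mutant than in any control (15.6%), against 16.9% of all genes tested there. Without control 5, 8 members were, against 8.67% of all genes. The members' counts were close to those of all genes in both settings. The median difference of the 76 members other than Dap3 was 0.06 in the first set, with 52 above 0, and -0.06 in the second, with 29 above 0. Over all genes tested in the first set the median was 0.16, and over all 77 members 0.05. The member median relative to all genes was thus -0.11 in that set, against -0.05 in all 10 libraries.

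Of the 29 members named by the rule, 13 had differences of opposite sign in the library sets. The share of all genes with opposite signs was not counted. Beside Mrpl1 and Mrps18a, described above, Mrpl52 had 0.33 within the first set and -0.12 in the second, Mrps18b 0.19 and -0.18, Mrps34 0.11 and -0.32, Mrpl21 0.19 and -0.14, Mrpl32 0.19 and -0.04, Mrpl11 0.11 and -0.09, and Mrps18c 0.02 and -0.07. The sign was the other way round for Mrps14, with -0.17 within the first set and 0.07 in the second, Mrpl14 with -0.09 and 0.17, Mrpl54 with -0.09 and 0.06, and Mrps21 with -0.02 and 0.16. The difference between the sets was not tested, and each second-set value rests on 2 mutants and 1 control. Over all tested genes the median difference was 0.16 within the first set. In the second, the median deviation of all genes from their mean over 10 libraries was 0.04 in mutant 4 and 0.02 in mutant 5. It was 0.11 in control 5. Whether a set-dependent sign is more common among these members than among all genes was not tested.

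**Figure D4:**
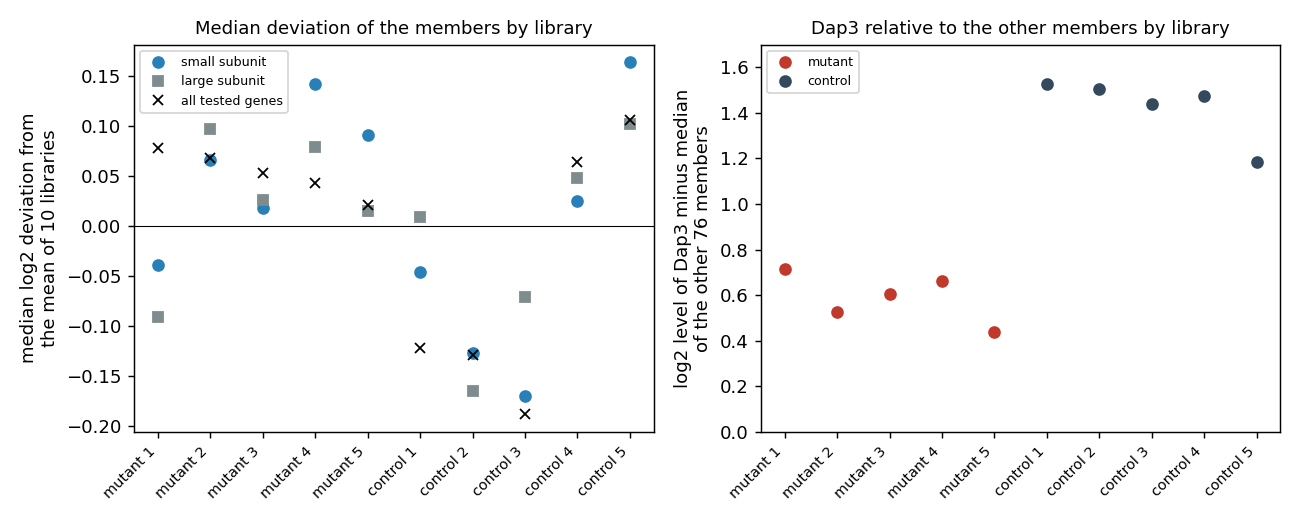
Left, the median log2 deviation of the small-subunit members, the large-subunit members and all tested genes from their mean over the 10 libraries, by library. Right, the log2 level of Dap3 minus the median log2 level of the other 76 members, by library: the 5 mutants lie between 0.44 and 0.72 and the 5 controls between 1.19 and 1.52.

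The remaining apparatus of mitochondrial translation was compared through 6 further lists, and 0 genes of any list passed adjustment in either direction (limma). The 6 ribosome proteins without an Mrps or Mrpl symbol had a median difference of 0.003, with 0 at an unadjusted p under 0.05. Of these, Mrp63 (mL63) had the smallest p, with 6.01 ± 0.507 FPKM in mutants and 5.06 ± 0.647 FPKM in controls (SD, n = 5 each), followed by Ptcd3 (mS39) with 48.6 ± 6.98 FPKM in mutants and 44.2 ± 9.08 FPKM in controls. The 27 genes of ribosome assembly and rRNA modification had a median of -0.01, and 1 was lower at an unadjusted p under 0.05, against 1.07% of all genes. This was Eral1, a GTPase that binds the rRNA of the small subunit during its assembly, with 11.2, 11.8, 11.4, 10.9 and 9.04 FPKM in mutants and 13.7, 13.0, 12.4, 14.9 and 12.0 FPKM in controls. Every mutant of Eral1 lay below every control, as for 0.377% of all genes. The highest mutant was at 11.8 FPKM and the lowest control at 12.0 FPKM. The log2 difference of Eral1 was -0.26 (SE 0.10, limma, unadjusted p = 0.0274, adjusted p = 0.516). Rpusd4, a pseudouridine synthase, came next with a difference of 0.17 (adjusted p = 0.696).

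The 13 factors of initiation, elongation, termination and recycling had a median of 0.15, against 0.11 for all genes. Of these factors, 2 were higher at an unadjusted p under 0.05 (limma), against 7.69% of all genes. Gfm2, which splits ribosomes after termination, measured 9.80, 8.96, 9.20, 8.77 and 7.99 FPKM in mutants and 5.14, 6.02, 5.61, 7.94 and 7.83 FPKM in controls. The mutants lay above the controls without overlap, as for 1.52% of all genes. The closest values were 7.99 FPKM in mutant 5 and 7.94 FPKM in control 4. The log2 difference was 0.42 (SE 0.13, limma, adjusted p = 0.357). Gfm1, the translocase of elongation, averaged 8.59 ± 0.520 FPKM in mutants and 6.59 ± 1.35 FPKM in controls, a difference of 0.35 (limma, adjusted p = 0.457). The 22 genes of aminoacyl-tRNA synthesis had a median of 0.05 with 0 at an unadjusted p under 0.05, and Wars2 (0.25) and Gatc (0.23) had the smallest p. The 11 genes of mitochondrial transcription and RNA stability had a median of 0.05 with 0 at an unadjusted p under 0.05. Tefm, an elongation factor of transcription, averaged 12.6 ± 0.877 FPKM in mutants and 14.3 ± 1.19 FPKM in controls, and Hsd17b10, a subunit of ribonuclease P, 32.1 ± 2.01 FPKM in mutants and 28.7 ± 2.01 FPKM in controls.

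Of 10 nuclear regulators of mitochondrial genes, 9 were tested, and Ppargc1b was under the filter. The median of the 9 was 0.155, against 0.106 for all genes. At an unadjusted p under 0.05 (limma) 2 were higher, against 7.69% of all genes. Myc measured 1.85, 2.19, 1.61, 1.31 and 2.11 FPKM in mutants and 1.21, 1.24, 0.825, 0.867 and 1.31 FPKM in controls, a log2 difference of 0.42 (limma, adjusted p = 0.357). Ppargc1a, a coactivator of mitochondrial biogenesis, measured 2.19, 2.11, 2.10, 2.19 and 2.43 FPKM in mutants and 1.05, 1.57, 1.39, 2.05 and 1.63 FPKM in controls, a difference of 0.35 (adjusted p = 0.457). The groups of Myc met at 1.31 FPKM, and every mutant of Ppargc1a lay above every control, as for 1.52% of all genes. The rRNAs of the ribosome itself averaged 15983 ± 2363 FPKM in mutants and 14907 ± 1226 FPKM in controls for mt-Rnr1 (SD, n = 5 each, exact two-sided permutation test, p = 0.405) and 105099 ± 14239 FPKM in mutants and 96076 ± 13743 FPKM in controls for mt-Rnr2 (p = 0.365). The groups of both rRNAs overlapped. Because rRNA was removed with Ribo-Zero before sequencing, these values depend on how complete the removal was.

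**Figure D5:**
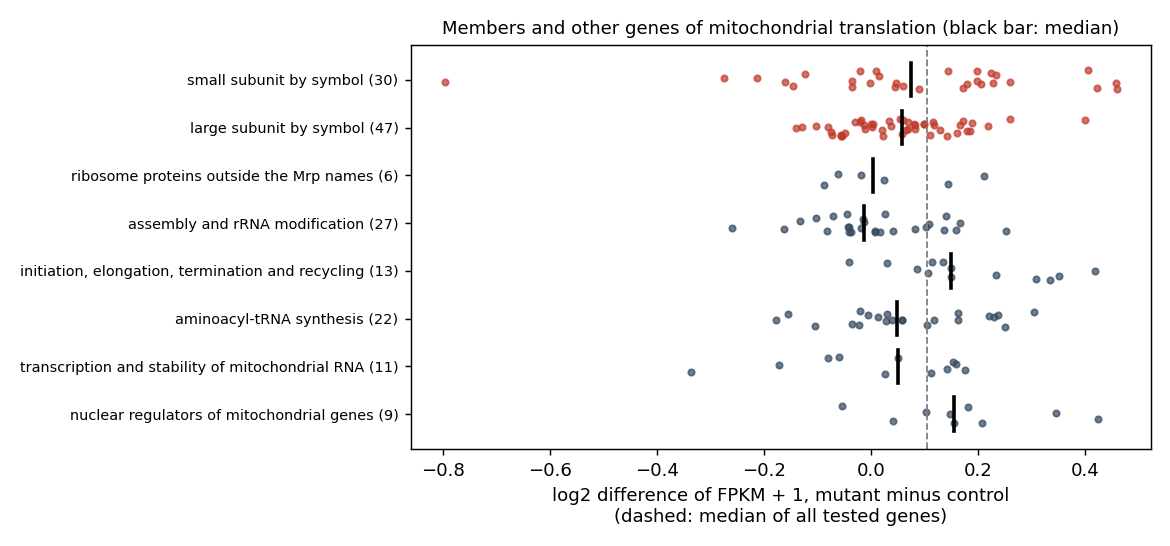
Log2 difference of FPKM + 1, mutant minus control, of each gene (points) in the 2 groups of members and in 6 lists of other genes of mitochondrial translation, with the list median as a black bar and the median of all tested genes as a dashed line at 0.11. The point of Dap3 at -0.80 lies far from the rest, and the other points of all rows lie between -0.34 and 0.46.

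In the genome the 77 genes are spread over 17 chromosomes, with 10 on chromosome 11. An exon of a gene on the opposite strand overlaps an exon of 28 of them, and an exon of a gene on the same strand overlaps 8, so their values depend on how the authors assigned fragments. Of the other genes of the small subunit shown above, Mrps5 (chr2:127587222-127606829) and Mrps2 (chr2:28468066-28471178) lie on the plus strand and Mrps33 (chr6:39801804-39810988) on the minus strand, and none of the 3 overlaps an exon of another gene. Genes that start next to Mrps or Mrpl genes in the opposite direction include Ndufs6 beside Mrpl36 and Ndufb5 beside Mrpl47, both of respiratory complex I, with log2 differences of -0.002 and 0.26 (limma, adjusted p = 0.997 and 0.503). Hira, a histone chaperone beside Mrpl40, had -0.002 (adjusted p = 0.998), and Sars2, a mitochondrial seryl-tRNA synthetase beside Mrps12, had 0.01 (adjusted p = 0.984). None of these 4 neighbours passed the test.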

How the data were processed

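For each library the authors deposited a file without a header that pairs gene symbols with FPKM (fragments per kilobase, per library size), the unit being taken from the series' description of the columns. Per the labels' protocols, Trizol was used for extraction and Ribo-Zero with a stranded total RNA kit for the libraries. HISAT2 and GRCm38 (mm10) appear in the submitters' processing notes. The quantifier, its gene models and its handling of strand were not named there.

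The test was limma 3.58.1 (R 4.3.3) on log2 values after adding 1 FPKM, using an intensity trend, robust moderation and no term beside genotype. A gene entered if 5 or more libraries reached 1 FPKM, and Benjamini-Hochberg adjustment covered every gene that entered (threshold 0.05). A log2 difference on this scale understates the change of low genes. Dap3, Rnu11, Ash1l and the mitochondrial rRNAs were also compared by two-sided exact permutation of their FPKM. Library sets were divided at 100 FPKM of Rnu12. Coordinates and overlaps are from GENCODE M21. Python 3.11.15 (pandas 2.3.3, scipy 1.17.1, matplotlib 3.10.9) served for tables and plots.

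The members, lists, named-gene rule and alternatives were chosen with earlier results of these data known. The rule named 29 members: Dap3, members past the threshold or without overlap between groups, up to 6 per subunit with the smallest p below the median difference of all genes and 4 above it, the 3 highest and 3 lowest per subunit by level, and the Mrps18 paralogs. Mrpl46 was added as the neighbour of Mrps11, and Mrps15 for its interval, after their values were seen, as were the 4 neighbours named last. In each other list the 2 genes with the smallest p were named. Depth is known only as a rough estimate, so no counting intervals are given.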

Additional observations from a re-analysis of the deposited data

Results flagged for a closer look

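In 58 groups of 5 libraries (the 29 named members in mutants and in controls), 6 had a highest or lowest library whose gap to the next exceeded 0.71 of the group's range, Dixon's 95% limit for 5 values. Chance alone marks about 1 in 20 groups.

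Control 5, of the second library set, was the outlying library in 4 of the 6. Mrpl42 was at 88.1 FPKM in control 5 and at 40.5 to 47.9 FPKM in the other 4 controls. Mrps2 was at 8.91 FPKM in control 5 and at 4.91 to 5.81 FPKM in the others. Mrps34 was at 9.54 FPKM in control 5 and at 6.21 to 6.33 FPKM in the others. Mrpl54 was the reverse, with 46.0 FPKM in control 5 and 61.6 to 67.7 FPKM in the others. Among mutants, Mrpl40 was at 41.2 FPKM in mutant 4 and at 34.2 to 35.7 FPKM in the others. Mrps11 was at 17.1 FPKM in mutant 2 and at 14.1 to 14.3 FPKM in the others. Neither group of Dap3 was marked.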

How the results depend on the processing

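Called genes over the whole table numbered 21 (12 higher and 9 lower). They numbered 2 with no filter, 35 with quantile normalization (13 higher and 22 lower), 30 with median-ratio scaling (11 higher and 19 lower), 74 with the library set as a term, 11 without trend and robust moderation, 89 in the first library set alone and 2 to 80 when 1 library was left out, the last without control 5. Dap3 was the 1 called member except with no filter, where 0 were called (-0.80, limma, adjusted p = 0.0528), and without mutant 2, mutant 3, control 1 or control 2. Leaving out 1 library gave 0 to 1 called members and a Dap3 difference of -0.83 to -0.75 (adjusted p from 0.0124 to 0.0828), and the call held in 6 of 10 such fits. Other settings gave adjusted p for Dap3 of 0.00346 to 0.0205.

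Members lower in every mutant numbered 2 with median-ratio scaling (Dap3 and Mrpl13), and 1 to 2 with 1 library left out, the 2 without control 3. The share of all genes lower in every mutant under these settings is not given here. Members higher in every mutant numbered 0 with median-ratio scaling, 12 in the first set alone, and 1 to 8 with 1 library left out, 8 without control 5 and 2 without mutant 2, mutant 4, control 2 or control 4. Of all genes, 16.9% were higher in every mutant in the first set alone and 8.67% without control 5. For the other settings that share is not given. The small-minus-large difference was -0.008 to 0.097 with 1 library left out, the highest without control 5. The 28 other named members stayed on their side of the threshold in all 532 fits, and 7 changed sign in 20 of them.

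With the replicate number as a block, 14 genes were called and Dap3 passed (limma, adjusted p = 0.0192). Libraries of the same number correlated at -0.107 to 0.521, and 3 of 5 mutants matched their own number best. Mutant 4 is of the second library set and control 4 of the first. These values do not decide whether the numbers mark pairs, and the main test did not take them as pairs. The causes of these shifts were not tested. The lack of stated depth, of strand use and of an unfloxed control limits every comparison.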
